A study of Mus musculus with 4 samples.

Results

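Antioxidant enzymes convert reactive oxygen species into harmless products. Superoxide dismutases turn superoxide into hydrogen peroxide, and catalase, the glutathione peroxidases and the peroxiredoxins then reduce the peroxide. The heart, whose many mitochondria release superoxide as a by-product of respiration, relies on these enzymes in the mitochondrial matrix as well as in the cytosol. The transcription factor NRF2 induces several of their genes under oxidative stress through a DNA motif called the antioxidant response element. Here the transcripts of 10 such genes (Sod1, Sod2, Cat, Gpx1, Gpx3, Gpx4, Prdx3, Prdx6, Hmox1 and Txnrd1) were followed. They were chosen by gene symbol out of 18193 genes on the arrays. The probe annotation assigned 20 probe sets to 9 of the 10 genes, and no probe set carried the symbol Prdx6 alone, so that gene has no value here. Each gene was represented by its brightest probe set, that is, the one with the highest mean log2 intensity over the 4 arrays.

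Adult C57BL/6J mice with floxed Rhau alleles (Rhau F/F) were compared with mice that carried the inducible CAAG-ERT2-Cre in addition, and 2 Affymetrix arrays were labelled Control and 2 Rhau KO. They are called Control 1, Control 2, KO 1 and KO 2 after label and replicate number. RHAU, encoded by Dhx36, is an RNA helicase that resolves G-quadruplex structures. Both genotypes were given 5 doses of tamoxifen at 2 months of age, and hearts were taken 2 months later. The study used littermates as controls and gives their genotype as Rhau F/F, with no Cre named. The array labels say nothing of Cre, nor of the cell types in which it acts. Intensities are MAS 5.0 signals as the authors deposited them, on a linear scale without units, and differences are log2 values in the direction Rhau KO minus Control, fitted with limma. SE is the standard error. Because no source states that replicate arrays hold RNA of different animals, the p-values cover the spread between these samples alone, which may be technical.

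The label of a group did not always match its transcripts. Dhx36 read 568 in KO 1, 537 in KO 2, 327 in Control 1 and 194 in Control 2 on its brightest probe set, a direction opposite to a deletion. Both KO arrays also read above both Control arrays on its second probe set (KO 627 and 537, Control 156 and 172) and on the dimmest (KO 327 and 276, Control 253 and 149). Directions are therefore given by label throughout. Control 1 was low in most heart transcripts and high in skeletal muscle transcripts. Its summed intensity over 9 cardiomyocyte markers was 87486, against 383330 to 388033 in the other 3 arrays, and over 9 fast skeletal muscle markers it was 394701, against 318 to 581. The troponin gene Tnni3 read 10.3 there and the myosin gene Myh4 read 43654. The drop was uneven over the cardiomyocyte list. Mybpc3, Myh6, Ryr2, Pln and Tnnt2 read 18.1 to 248 in Control 1, and Actc1 read 12364. Myl2 read 37359 there, against 40197 to 44161 in the other arrays, and Myl3 read 37087, against 48658 to 50786. These further cardiomyocyte genes were named after their values were seen. Control 2 had the highest sum over 8 heat shock genes, 188470 against 48640 to 75168, with Hspa1a at 18079. The differences below are therefore also given without Control 1, which leaves 1 Control array, assumed to vary like the others.

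To show the kind of motif that NRF2 is known to bind, the RefSeq promoter windows (GRCm38.p6, 250 bases before to 50 bases after the start) were searched on both strands for the core of the antioxidant response element, TGACNNNGC. Windows were given for 8 of the members, and Prdx6 and Hmox1 had no entry. Of their 13 windows, 2 held a match, 1 in Sod1 and 1 in an alternative start of Txnrd1, while 12.4% of all 32851 windows held one. The matching stretches are printed 5′ to 3′ on the minus strand, with the core in capitals, at chr16:90220697-90220723 for Sod1 and chr10:82859105-82859131 for Txnrd1. Both genes lie on the plus strand, and the cores are 48 to 56 (Sod1) and 84 to 92 (Txnrd1) bases upstream of the annotated starts.
Sod1: gcctgagtcTGACCACGCccaccttgg
Txnrd1: gtgtcagaaTGACAAAGCaaaaatcca
A match shows only that these letters are present in the window.

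The dismutases, catalase and the mitochondrial peroxiredoxin were the members that read higher in both KO arrays than in both Control arrays. Sod2, Sod1, Cat and Prdx3 were separated in this way, with higher geometric means by 1.20-fold (Prdx3) to 1.47-fold (Sod2), and Gpx3 was separated in the opposite direction by 1.39-fold. Gpx1, Gpx4, Hmox1 and Txnrd1 overlapped between the groups. Over all genes 21.7% were higher in both KO arrays and 14.6% lower in both, against 4 and 1 of the 9 members. With limma, 0 of the 9 members passed an adjusted p of 0.05, as did 0% of all genes. At an unadjusted p under 0.05 the count of members was 0 by limma, against 4.31% of all genes. It was also 0 by the methods' t-test, for which the share of all genes was not counted. The pair of thresholds that the study set, at least 2-fold and an unadjusted p under 0.05, was reached by 0 members, against 1.65% of all genes higher and 1.64% lower. Without Control 1, 3 of the 9 (Cat, Sod2 and Gpx3) had an unadjusted p under 0.05 by limma, against 13.3% of all genes, and 0 had an adjusted p under 0.05, against 0.819% of all genes. Without Control 2, which leaves the array with skeletal muscle transcripts as the lone Control, 6 of the 9 passed the adjusted threshold by limma, against 22.5% of all genes.

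**Figure D1:**
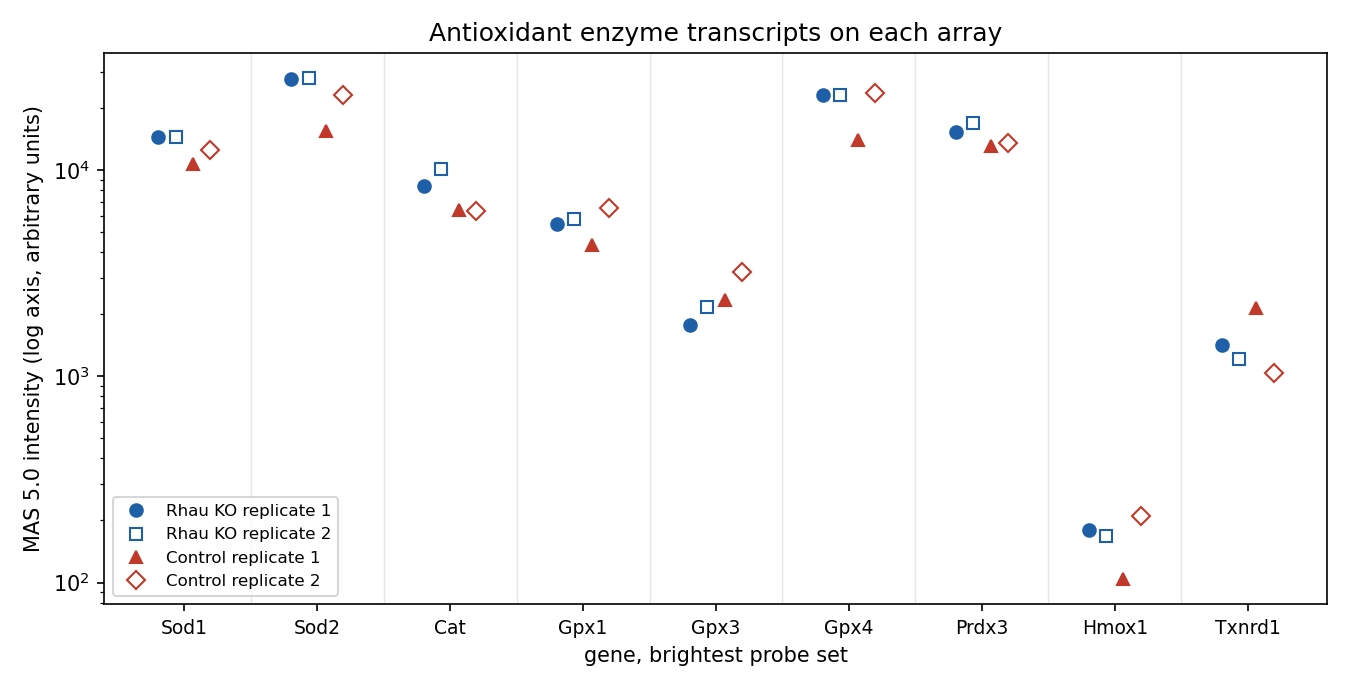
Levels of the 9 measured antioxidant enzyme genes on their brightest probe sets (MAS 5.0 intensity, log axis), with 1 symbol per array, KO arrays in blue and Control arrays in red. For Sod1, Sod2, Cat and Prdx3 both blue symbols lie above both red ones, and Control 1 (filled triangle) is the lowest array for 6 of the 9 genes and the highest for Txnrd1.

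Sod2 encodes the manganese superoxide dismutase of the mitochondrial matrix. It read 27690 in KO 1, 27951 in KO 2, 15518 in Control 1 and 23087 in Control 2. The KO arrays lay close together, and Control 1 lay farther below them than Control 2. On the log2 scale the gap was 0.56 (limma SE 0.26, adjusted p = 0.873, 95% interval -0.15 to 1.26). Without Control 1 it was 0.27 (limma SE 0.09, adjusted p = 0.271, 95% interval 0.06 to 0.48). The other 3 probe sets of Sod2 kept the same order of all KO arrays above both Control arrays. The next brightest read 24874 in KO 1, 25320 in KO 2, 10181 in Control 1 and 20012 in Control 2.

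Sod1 encodes the copper and zinc superoxide dismutase of the cytosol. On its brightest probe set it read 14398 in KO 1, 14429 in KO 2, 10750 in Control 1 and 12481 in Control 2, so that the groups did not overlap. The groups differed by a log2 value of 0.32 (limma SE 0.19, adjusted p = 0.873), and 0.21 (limma SE 0.09, adjusted p = 0.393) without Control 1. The second probe set read 9681 in KO 1, 12042 in KO 2, 7245 in Control 1 and 7509 in Control 2, a wider gap of 0.55 on the log2 scale. The other 3 probe sets of Sod1 were dimmer. On the brightest of these the groups overlapped, at 483 in KO 1, 351 in KO 2, 464 in Control 1 and 313 in Control 2, and the remaining ones read under 100 on every array, where MAS 5.0 signals are imprecise.

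Cat encodes catalase, the peroxisomal enzyme that splits hydrogen peroxide into water and oxygen. It read 8363 in KO 1, 10153 in KO 2, 6376 in Control 1 and 6361 in Control 2. Unlike for Sod2, the Control arrays were nearly equal, and the spread lay between those labelled KO. The KO minus Control difference was 0.53 (limma SE 0.20, adjusted p = 0.873, 95% interval -0.01 to 1.07), and it was also 0.53 without Control 1 (limma SE 0.14, adjusted p = 0.199). The second probe set of Cat read 7380 in KO 1, 8556 in KO 2, 4244 in Control 1 and 4996 in Control 2, a KO minus Control value of 0.79 (limma SE 0.22, adjusted p = 0.886 over all probe sets). Both probe sets thus placed both KO arrays above both Control arrays.

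Prdx3, the peroxiredoxin of the mitochondrial matrix, read 15294 in KO 1, 16857 in KO 2, 13148 in Control 1 and 13526 in Control 2. It had 1 probe set, and its range over the arrays, 0.36 log2 units, was the narrowest among the 9 members. On the log2 scale the gap was 0.27 (limma SE 0.19, adjusted p = 0.873) and 0.25 without Control 1 (limma SE 0.10, adjusted p = 0.381). Both Control arrays lay below both KO arrays.

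**Figure D2:**
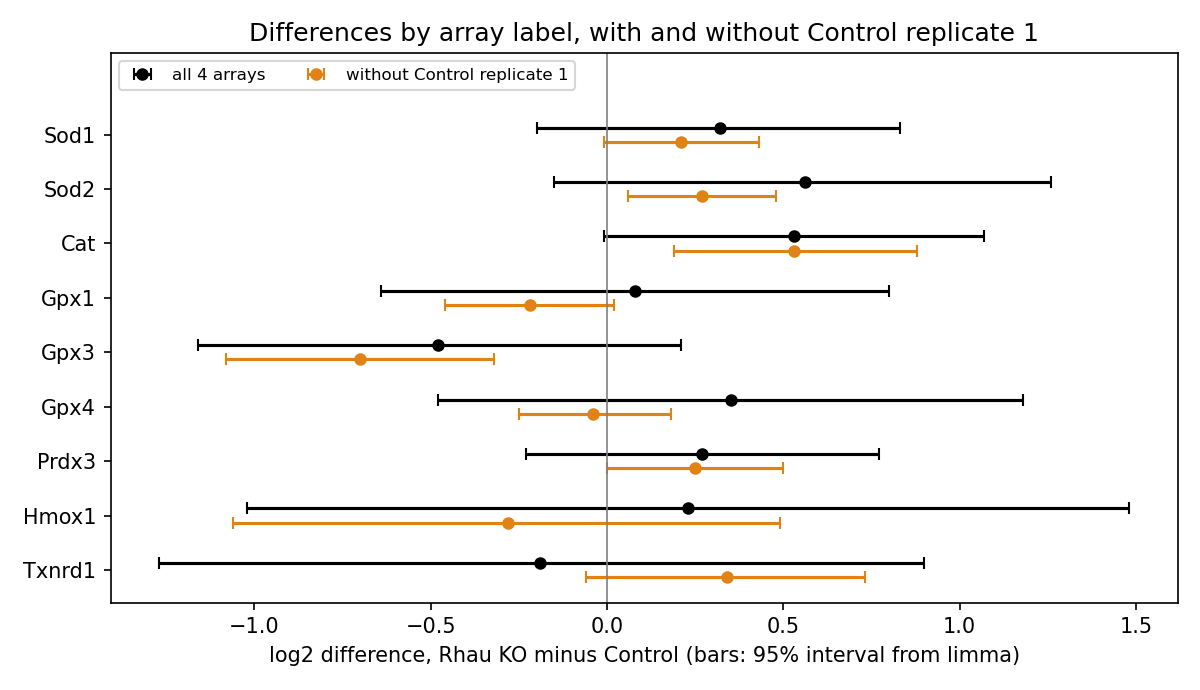
Log2 difference of each antioxidant enzyme gene, Rhau KO minus Control by array label, with all 4 arrays (black) and without Control 1 (orange). Points are the limma estimates and bars their 95% intervals, and with all 4 arrays each interval includes 0, while without Control 1 those of Sod2, Cat and Gpx3 do not.

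The glutathione peroxidases Gpx1, Gpx3 and Gpx4 are selenium enzymes that reduce peroxides with glutathione. Gpx1 and Gpx4 ranked the arrays alike, highest in Control 2 and lowest in Control 1, and Gpx3 ranked them in another order. Gpx3, the secreted form found in plasma, read 1779 in KO 1, 2166 in KO 2, 2335 in Control 1 and 3191 in Control 2. It was the only member of the 9 whose brightest probe set was lower in both KO arrays than in both Control arrays. The groups differed by a log2 value of -0.48 (limma SE 0.26, adjusted p = 0.873). Without Control 1 it was -0.70 (limma SE 0.15, adjusted p = 0.147, 95% interval -1.08 to -0.32). The remaining Control array there is replicate 2, the array with high heat shock transcripts, and the part of that state in the gap was not tested.

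Gpx4, which reduces lipid peroxides in membranes and protects cells from ferroptosis, read 23044 in KO 1, 23123 in KO 2, 13927 in Control 1 and 23687 in Control 2. Control 1 stood apart, and the other 3 arrays differed little. The log2 difference of 0.35 (limma SE 0.31, adjusted p = 0.873) became -0.04 without Control 1, with a 95% interval of -0.25 to 0.18. Its other probe set gave the same picture, at 18828 in KO 1, 20173 in KO 2, 13430 in Control 1 and 20170 in Control 2. Gpx1, the cytosolic and mitochondrial form, read 5500 in KO 1, 5781 in KO 2, 4320 in Control 1 and 6566 in Control 2, so that both KO values lay between the Control values. Its log2 difference was 0.08 (limma SE 0.27, adjusted p = 0.955), -0.05 with median centring of the arrays and -0.22 without Control 1.

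Hmox1 encodes heme oxygenase 1, an inducible enzyme that degrades heme and is a target of NRF2 and of heat shock. It read 180 in KO 1, 168 in KO 2, 104 in Control 1 and 211 in Control 2, on a single probe set. Both KO values lay between the Control values, and the log2 difference of 0.23 (limma SE 0.47, adjusted p = 0.925) became -0.28 without Control 1 (limma SE 0.31, 95% interval -1.06 to 0.49). Hmox1 was highest in Control 2, where the heat shock gene Hspa1a read 18079 against 582 to 1141 in the other arrays. Macrophages are a known source of this enzyme, and the summed intensity of 8 macrophage markers, all of them measured and none at 0, was 14185 in KO 1, 14539 in KO 2, 6703 in Control 1 and 14418 in Control 2. Hmox1 was thus lowest in the array in which the macrophage sum was lowest. That array was also the lowest for 6 of the 9 members and for the summed intensity of 5 endothelial markers, 2752 against 8145 to 8810. Of the 8 macrophage markers, Cd163 alone was lowest in another array, at 259 in Control 2 and 466 in Control 1. The part of macrophages or of heat shock in the level of Hmox1 was not tested. In RNA of whole tissue, fewer cells of a type and less RNA per cell cannot be told apart.

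Txnrd1 encodes the cytosolic thioredoxin reductase, which uses NADPH to keep thioredoxin reduced. It read 1421 in KO 1, 1207 in KO 2, 2142 in Control 1 and 1038 in Control 2. It was the only one of the 9 members that was highest in Control 1, the array with skeletal muscle transcripts, by 0.82 log2 units over the mean of the other 3 arrays. The KO minus Control difference was -0.19 (limma SE 0.41, adjusted p = 0.929) and turned to 0.34 without Control 1 (limma SE 0.16, adjusted p = 0.441). With the mean of all probe sets it was -0.59. Of its 2 other probe sets, 1 read 71.3 to 108 and the other 23.6 to 81.6, and both gave lower values in both KO arrays at this dim level.

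**Figure D3:**
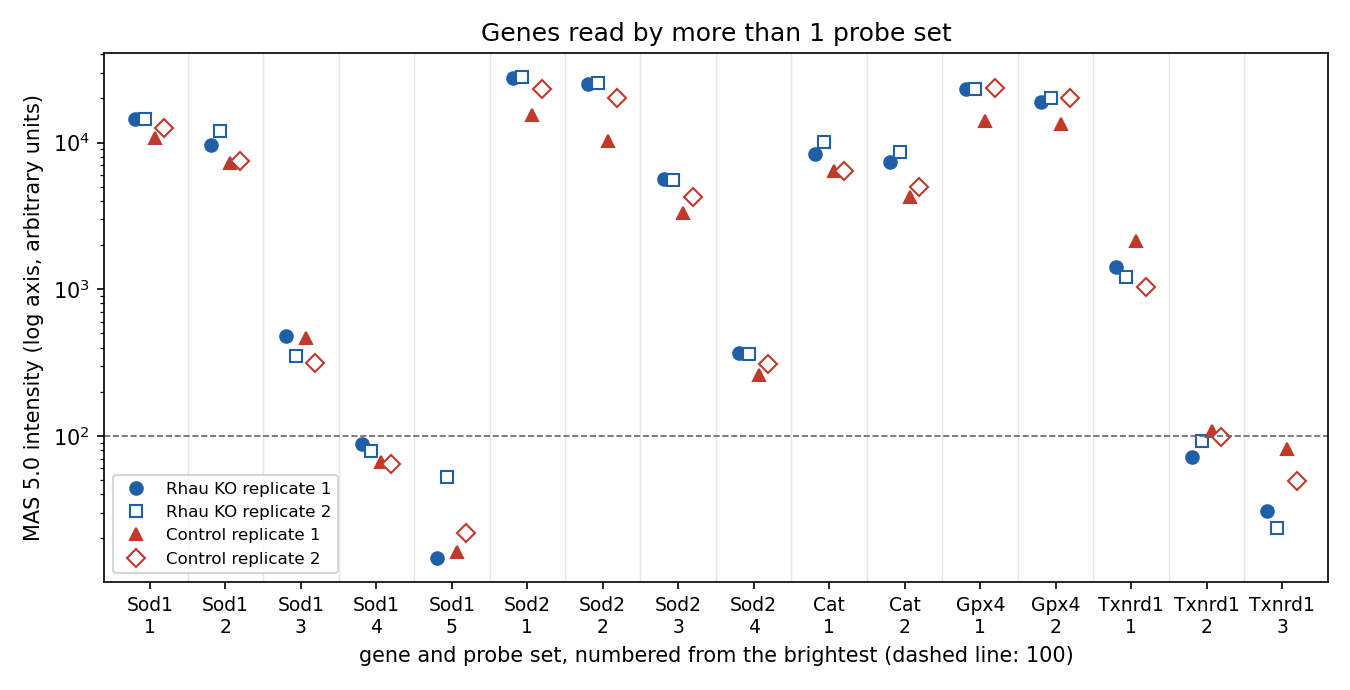
MAS 5.0 intensity (log axis, arbitrary units) on every probe set of the 5 genes with more than 1 probe set, numbered from the brightest, with KO arrays in blue and Control arrays in red. All 4 probe sets of Sod2 and both of Cat place both blue symbols above both red ones, and points near or under the dashed line at 100 belong to dim probe sets.

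Counted over arrays, Control 1 stood apart from the others for most members. It was the lowest array for 6 of the 9 genes, and its median deviation from each gene's mean over the 4 arrays was -0.27 log2 units for the members, against -0.07 for all genes. In KO 1 and KO 2 the median deviation of the members was 0.13 and 0.16, and in Control 2 it was 0.01. With all arrays 7 of the 9 members had a higher mean log2 intensity in the KO arrays, as did 56.9% of all genes, and the median difference was 0.27 log2 units, against 0.09 for all genes. Without Control 1, 5 of the 9 were higher, as were 52.8% of all genes, and the median difference was 0.21 against 0.03 for all genes. Median centring moved the median of all genes from 0.09 to -0.04, and the members' median from 0.27 to 0.14. It shifts the difference of every gene by the same amount, so the gap of 0.18 between the medians could not change. Of the 20 probe sets, which are not independent within a gene, 16 averaged higher in the KO arrays.

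The genes that work with these enzymes were taken from 7 lists by role, of which 75 of 81 written genes were measured. With limma, 0 of the 75 passed an adjusted p of 0.05, against 0% of all genes, and 6 had an unadjusted p under 0.05, against 4.31% of all genes. Biliverdin reductase Blvrb was higher and the transferrin receptor Tfrc, which brings iron into cells, was lower at both study thresholds. These were 1 gene of the 75 in each direction, near the 1.65% and 1.64% of all genes. In all, 26 of the 75 were higher in both KO arrays and 6 were lower in both, against 21.7% and 14.6% of all genes. The median log2 difference was 0.20 with all arrays and 0.09 without Control 1, against 0.09 and 0.03 for all genes. Without Control 1, 1 of the 75 was higher at both thresholds (Slc40a1) and 2 were lower (Tfrc and Ncf4), against 2.96% and 1.54% of all genes. Without Control 2, 20 of the 75 passed both thresholds, against 18% of all genes.

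Blvrb read 841 in KO 1, 1035 in KO 2, 358 in Control 1 and 467 in Control 2. On the log2 scale the gap was 1.19 (limma SE 0.28, adjusted p = 0.873), and just under 1 without Control 1, so that the fold did not reach 2 (adjusted p = 0.111). Tfrc read 2553 in KO 1, 1099 in KO 2, 4991 in Control 1 and 5781 in Control 2, a KO minus Control value of -1.68 (limma SE 0.45, adjusted p = 0.873) on the log2 scale. It was -1.79 without Control 1 (adjusted p = 0.199), -1.07 without KO 2 and -0.85 with the mean of all its probe sets. Slc40a1, the iron exporter ferroportin, read 1850 in KO 1, 2350 in KO 2, 2252 in Control 1 and 1013 in Control 2, so the groups overlapped. Its log2 difference of 0.47 was 1.04 without Control 1 (adjusted p = 0.0849). The iron storage gene Fth1 read 42894 to 46937 on the 4 arrays. Hmox2, the constitutive heme oxygenase, Blvra, a second biliverdin reductase, and Fech, which completes heme synthesis, had log2 values of KO minus Control of 0.26, 0.20 and 0.14. Without Control 1 these were 0.01 for Hmox2, 0.04 for Blvra and 0.32 for Fech. Fth1, Blvra and Fech were named after their values were seen.

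In the NRF2 pathway, 6 of 13 measured genes averaged higher in the KO arrays and 7 lower, with a median log2 value of -0.18. Without Control 1 the balance turned, with 9 of 13 higher and a median of 0.05. Among all genes 56.9% averaged higher with all arrays and 52.8% without Control 1. Nfe2l2, which encodes NRF2, read 4902 in KO 1, 4944 in KO 2, 3261 in Control 1 and 3598 in Control 2. Its log2 difference was 0.52 (limma SE 0.19, adjusted p = 0.873), 0.45 without Control 1 (adjusted p = 0.147) and 0.27 with the mean of all its probe sets. Nqo1, a quinone reductase and a classical NRF2 target, read 1492 in KO 1, 1236 in KO 2, 723 in Control 1 and 928 in Control 2, a KO minus Control value of 0.73 (limma SE 0.26, adjusted p = 0.873). For both genes the groups did not overlap, and without Control 1 the value of Nqo1 was 0.55 (adjusted p = 0.253). Mafk, a partner of NRF2 on DNA, lay the other way, at 1165 in KO 1, 1161 in KO 2, 1347 in Control 1 and 1665 in Control 2 (log2 value -0.37, and -0.52 without Control 1). Taldo1, a transaldolase of the pentose phosphate pathway, read 3728 in KO 1, 3606 in KO 2, 3061 in Control 1 and 2447 in Control 2 (log2 value 0.42, and 0.58 without Control 1).

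Among 18 genes of glutathione and thioredoxin metabolism, 14 averaged higher in the KO arrays, and 11 without Control 1. The shares of all genes were 56.9% and 52.8%. The groups were separated for 7 of the 18 with KO higher and for 1 with KO lower, against 21.7% and 14.6% of all genes. The list's median log2 value was 0.34, and 0.05 without Control 1. The 4 genes with the smallest p are described next. Msrb1, a selenium enzyme that repairs oxidized methionine, read 3254 in KO 1, 4299 in KO 2, 2364 in Control 1 and 2312 in Control 2, a KO minus Control value of 0.68 (limma SE 0.23, adjusted p = 0.873). Txn2, the mitochondrial thioredoxin that serves Prdx3, read 4093 in KO 1, 4317 in KO 2, 2420 in Control 1 and 3189 in Control 2, with a KO minus Control value of 0.60 and of 0.40 without Control 1. Glrx5, a mitochondrial glutaredoxin, read 10143 in KO 1, 9882 in KO 2, 7118 in Control 1 and 7621 in Control 2, and Txnip, an inhibitor of thioredoxin, read 12760 in KO 1, 17877 in KO 2, 11330 in Control 1 and 10450 in Control 2. For these 4 genes both KO arrays lay above both Control arrays, and without Control 1 the log2 values were 0.69 for Msrb1, 0.39 for Glrx5 and 0.53 for Txnip.

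NADPH is the reductant on which glutathione and thioredoxin depend. Of 6 genes that supply it in mitochondria, 6 averaged higher in the KO arrays with and without Control 1. Among all genes the share was 56.9% with all arrays and 52.8% without Control 1. Nnt, the transhydrogenase of the inner membrane, read 17180 in KO 1, 23140 in KO 2, 3874 in Control 1 and 13477 in Control 2. Its log2 difference of 1.46 (limma SE 0.64, adjusted p = 0.873) was 0.57 without Control 1 and 0.65 with the mean of all its probe sets. Idh2, the mitochondrial isocitrate dehydrogenase that makes NADPH, read 24946 in KO 1, 26055 in KO 2, 10812 in Control 1 and 20597 in Control 2, with log2 values of KO minus Control of 0.77 and 0.31. Control 1 was the lowest array for both genes. These are transcript values, and neither the enzymes nor NADPH were measured. Whether the Nnt transcript gives a working enzyme in these C57BL/6J mice was not tested. The list's median log2 difference was 0.52, and 0.47 without Control 1.

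Of 7 other superoxide and peroxide enzymes, 6 averaged higher in the KO arrays, with and without Control 1. Among all genes 56.9% averaged higher with all arrays and 52.8% without Control 1. Gpx2, a further glutathione peroxidase and the gene with the smallest p of this list, was dim, at 68.1 in KO 1, 115 in KO 2, 49 in Control 1 and 42.7 in Control 2. Its log2 value was 0.95 (limma SE 0.51, adjusted p = 0.873), and 1.05 without Control 1. Prdx2, a cytosolic peroxiredoxin, read 21079 in KO 1, 22314 in KO 2, 9289 in Control 1 and 20738 in Control 2. Prdx4, the peroxiredoxin of the endoplasmic reticulum, read 2278 in KO 1, 2197 in KO 2, 835 in Control 1 and 2076 in Control 2. Sod3, the extracellular dismutase, read 218 in KO 1, 200 in KO 2, 63 in Control 1 and 186 in Control 2. For Prdx2, Prdx4 and Sod3, unlike for Gpx2, Control 2 lay close to the KO arrays, and without Control 1 the log2 values of KO minus Control were 0.06 for Prdx2, 0.11 for Prdx4 and 0.16 for Sod3. The list's median went from 0.64 to 0.11 log2 units without that array.

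**Figure D4:**
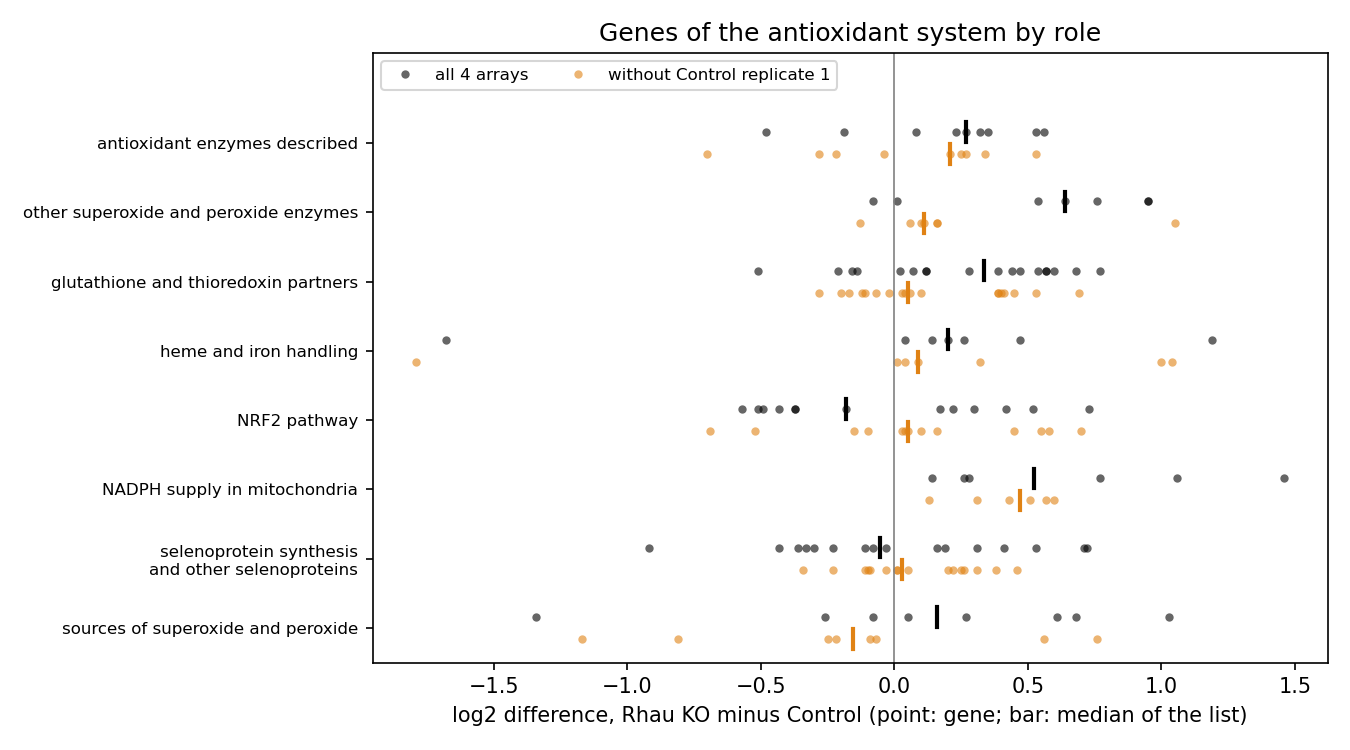
Log2 difference, Rhau KO minus Control by array label, of each measured gene of the antioxidant system by role, with all 4 arrays (black) and without Control 1 (orange). Vertical bars are list medians, and that of the other superoxide and peroxide enzymes went from 0.64 to 0.11 without Control 1, while that of mitochondrial NADPH supply went from 0.52 to 0.47.

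Hmox1 and Txnrd1 were the members whose values spanned over 1 log2 unit across the arrays, at 1.02 and 1.05. Among 6210 genes with a mean log2 intensity of at least 9, the closest to Hmox1 by root mean square distance of centred log2 values over the 4 arrays were Vldlr, Ptprb and Phc2, at 0.025 to 0.035 log2 units. The closest to Txnrd1 were Klhl22, Tsnax and Phf5a, at 0.024 to 0.034. Over 4 arrays many genes can lie this close, and the distances are given as a description.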

How the data were processed

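Expression was profiled on 4 Affymetrix Mouse 430 2.0 arrays hybridized with adult heart RNA, by their labels. The deposited values are linear MAS 5.0 intensity, which the authors computed in GeneSpring. Detection calls were not used here, and between 51.7% and 54.0% of the 45101 probe sets had an intensity under 100. The number of arrays limits the precision. In the GEO platform annotation 34958 probe sets had 1 symbol, 932 several and 9211 none. Those with 1 symbol, without the 64 control probe sets, gave 18193 genes.

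Linear models of log2 intensity were fitted in limma 3.58.1 (R 4.3.3) with a trended eBayes prior and Benjamini-Hochberg adjustment over all genes. With 2 arrays a group, the smallest p of an exact permutation test, two-sided, is 0.333. The study's thresholds for the arrays were a fold of 2 and p of 0.05, and the methods' t-test was run as an alternative, beside other scalings, a pseudocount of 32, other ways to join probe sets, a replicate block and leaving out each array. Code was tested on simulated data. Members and the 16 gene lists, given with their counts in the text, were chosen with earlier results of these data known. Named were all members, up to 4 genes with the smallest p of each list, Dhx36, Tnni3, Myh4 and Hspa1a, 3 genes closest to each member that spanned over 1 log2 unit, and others where the text says so. The promoter motif was chosen after the array values were seen. Plots were drawn with matplotlib 3.10.9, and tables were handled with pandas 2.3.3.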

Additional observations from a re-analysis of the deposited data

How the results depend on the processing

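The count of members past an adjusted p of 0.05 was 0 of 9 with all arrays under each scaling, pseudocount, filter and test tried, and 0 to 6 when an array was left out, the 6 arising without Control replicate 2. The count at both study thresholds was 0 under each alternative run. At an unadjusted p under 0.05 the count was 0 of 9, but 1 with quantile normalization, with a pseudocount of 32, among the brighter genes (of 8), with the mean of all probe sets and with every probe set counted singly (of 20), and 0 to 7 when an array was left out (3 without Control replicate 1, 7 without Control replicate 2). The count of 7 has no share of all genes beside it, since none was counted at this threshold without Control replicate 2. The lone Control there is the array with skeletal muscle transcripts, so the 7 cannot be read as particular to the members. Of the 20 probe sets 16 had a higher mean. The members' median log2 difference was 0.27, and 0.21 to 0.42 when an array was left out. Gpx1 turned to -0.05 with median centring. When an array was left out, log2 differences ranged from -0.22 to 0.38 for Gpx1, -0.04 to 0.73 for Gpx4, -0.28 to 0.74 for Hmox1, -0.71 to 0.34 for Txnrd1, -0.07 to 2.13 for Cyba, -0.25 to 1.61 for Ncf1 and -0.11 to 1.04 for Slc40a1. Selenot turned to 0.34 with the mean of all probe sets. The replicate block left the counts of members at 0 and 0 and the median at 0.27. Arrays with the same number had a correlation of 0.00603 between their deviations, so the number is not known to pair them. Of the other combinations of member and alternative, 96 kept their direction and their side of the adjusted threshold, and 6 passed it, all without Control replicate 2. Blvrb passed both thresholds in the settings run except without either Rhau KO array and without Control replicate 1, and Tfrc in those except the mean of all probe sets, the methods' t-test and without Rhau KO replicate 2. The cause was not tested for any of these. Probe sets under 100 give little information on direction.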

Other observations

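Genes that make superoxide or peroxide, and selenoprotein genes other than the members, are described here as values. Of 8 measured sources of superoxide and peroxide, 5 averaged higher in the KO arrays with all arrays and 2 without Control 1. The shares of all genes were 56.9% and 52.8%. Maob, a monoamine oxidase that releases hydrogen peroxide at the mitochondrial outer membrane, read 2812 in KO 1, 2474 in KO 2, 1657 in Control 1 and 1792 in Control 2, a KO minus Control value of 0.61 on the log2 scale (limma SE 0.20, adjusted p = 0.873) and of 0.56 without Control 1. Nox4, an NADPH oxidase, read 54.6 in KO 1, 62.2 in KO 2, 214 in Control 1 and 102 in Control 2, a dim level, and its groups did not overlap (log2 value -1.34, and -0.81 without Control 1). Cyba, a subunit of the NADPH oxidases, read 1404 in KO 1, 1786 in KO 2, 363 in Control 1 and 1666 in Control 2, and Ncf1 read 166 in KO 1, 161 in KO 2, 53.4 in Control 1 and 194 in Control 2.

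Of 16 genes of selenoprotein synthesis and other selenoproteins, 7 averaged higher in the KO arrays and 9 lower, with a median log2 difference of -0.06. Without Control 1 the balance turned, with 10 of 16 higher and a median of 0.03. Among all genes 56.9% averaged higher with all arrays and 52.8% without Control 1. Secisbp2, which recruits the selenocysteine machinery to selenoprotein mRNAs, read 698 in KO 1, 672 in KO 2, 331 in Control 1 and 525 in Control 2 (log2 value 0.72, and 0.38 without Control 1). Selenow, a small muscle selenoprotein chosen with its values known, was at 21932 in Control 1, while the other 3 arrays held 4334 to 5267. The median log2 values of KO minus Control of the remaining marker lists were 1.06 for 4 erythroid genes, -1.16 for 4 adipocyte genes, 0.22 for 5 fibroblast genes and 0.78 for 5 endothelial genes, and without Control 1 they were in the same order 1.07, -0.96, -0.19 and -0.10. The erythroid and adipocyte medians rest on dim probe sets, since the erythroid genes Hba-a1, Slc4a1 and Epb42 read under 100 on each array, as did the adipocyte gene Lep. The bright adipocyte gene Fabp4 had a log2 value of 0.37, opposite to its list's median, and of 0.02 without Control 1.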
